A study of Mus musculus with 18 samples.

Results

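Described here are 10 genes of glycolysis and of the cellular response to low oxygen, *Slc2a1*, *Hk2*, *Pfkfb3*, *Pfkl*, *Pgk1*, *Eno1*, *Ldha*, *Bnip3*, *Egln3* and *Hif1a*. They were chosen by symbol from the 38243 genes counted in each library, 36964 of which carry a symbol, and all 10 passed the filter on low values that left 11469 genes for testing. RNA came from 6 female C57BL/6 embryos (C57BL6/J in the study's methods) at embryonic day 16.5. Of these, 3 were heterozygous for an Apert syndrome substitution in *Fgfr2*, a fibroblast growth factor receptor (Fgfr2+/S252W), and 3 were littermates without it (Fgfr2+/+). Laser capture took mandibular bone, Meckel's cartilage (MC) and mandibular condylar cartilage (condyle) from cryosections, which gave 18 libraries in 6 groups of 3. The study told the genotypes apart by PCR on tail DNA, and the labels name no treatment.

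Cells take up glucose through membrane carriers and split it in the cytosol to pyruvate, which is turned to lactate where little of it enters the mitochondria. When oxygen is scarce, the HIF transcription factors escape the prolyl hydroxylases that mark their alpha subunits for destruction, and they bind DNA at short sequences with a core of ACGTG or GCGTG. Their targets include the glucose carrier encoded by *Slc2a1*, most glycolytic enzymes, the mitophagy receptor BNIP3 and one of the hydroxylases themselves, EGLN3. Cartilage normally has no blood vessels, whereas bone is vascularized, and the comparison of both cartilages with bone asks how these genes stand in each tissue.

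The letters ACGTG or GCGTG, searched on both strands, were present in the 250 bases before the annotated start of every one of the 10 genes (14 windows, since some genes have several starts). ACGTG was found in 64.3% of these 14 windows and in 16.6% of all 32851 windows of this length, GCGTG in 57.1% against 28.2%, and either in 100% against 38.6%. In 71 windows of 49 other genes of these pathways, listed further on, the shares were 35.2%, 54.9% and 70.4%. The 14 windows are not independent, since windows 2 and 3 of *Eno1* overlap and hold the same GCGTG matches. By gene, ACGTG was present for 8 and GCGTG for 6 of the 10 genes, against 4998 and 8338 of all 27025 genes. The windows below are RefSeq sequence on GRCm38.p6, 5′ to 3′ on the strand of the gene, with matches on either strand in capitals. They show 3 genes whose level was high in the condyle (*Bnip3*, *Pgk1*, *Hk2*) and the gene whose level there did not differ detectably from bone (*Egln3*). *Bnip3*, on the minus strand of chromosome 7, has 2 matches to ACGTG, which overlap as the palindrome CACGTG, and 3 to GCGTG.
Bnip3, chr7:138909507-138909756: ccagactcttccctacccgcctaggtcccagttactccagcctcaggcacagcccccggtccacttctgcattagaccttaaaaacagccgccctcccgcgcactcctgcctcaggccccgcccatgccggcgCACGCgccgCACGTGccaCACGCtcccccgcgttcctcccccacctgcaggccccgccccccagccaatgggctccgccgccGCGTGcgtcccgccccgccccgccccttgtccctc
Pgk1, chrX:106186850-106187099: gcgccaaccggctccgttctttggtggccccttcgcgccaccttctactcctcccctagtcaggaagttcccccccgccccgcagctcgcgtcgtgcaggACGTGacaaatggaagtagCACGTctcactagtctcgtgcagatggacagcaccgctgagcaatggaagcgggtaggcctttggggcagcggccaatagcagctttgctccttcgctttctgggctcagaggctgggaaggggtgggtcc
Hk2, chr6:82774455-82774704: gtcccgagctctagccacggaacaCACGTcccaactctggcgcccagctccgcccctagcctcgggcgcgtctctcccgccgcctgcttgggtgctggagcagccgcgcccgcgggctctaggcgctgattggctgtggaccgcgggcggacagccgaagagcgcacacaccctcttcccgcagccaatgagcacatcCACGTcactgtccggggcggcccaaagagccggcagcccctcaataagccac
Egln3, chr12:54203875-54204124: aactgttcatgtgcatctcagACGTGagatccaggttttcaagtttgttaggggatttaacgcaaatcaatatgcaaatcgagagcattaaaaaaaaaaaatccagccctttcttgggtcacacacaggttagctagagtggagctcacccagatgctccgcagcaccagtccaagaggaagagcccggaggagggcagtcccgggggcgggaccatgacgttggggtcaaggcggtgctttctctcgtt
*Pgk1*, on the plus strand of chromosome X, and *Hk2*, on the minus strand of chromosome 6, each have 2 matches to ACGTG and none to GCGTG. *Egln3*, on the minus strand of chromosome 12, has 1 match to ACGTG. A match is a run of letters and not a measured binding site.

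Between 8218548 and 15585778 fragments were counted per library, and a member had from 0 (*Egln3*) to 32228 (*Ldha*) fragments in a library. Levels are given as FPKM, fragments relative to exon length and to the TMM-scaled library size, which allows genes to be compared per length. By their markers the tissues were as labelled, with exceptions in MC and a high osteoblast marker sum in a condyle library. The summed level of 10 chondrocyte markers lay between 6406 and 7681 FPKM in the condyle, between 40.0 and 108 in bone, and between 482 and 2065 in 5 of the 6 MC libraries. The sixth, Fgfr2+/+ MC replicate 1, stood at 89.2 FPKM and had the highest osteoblast marker sum of its group (830.4 FPKM). In Fgfr2+/S252W MC replicate 3 too the osteoblast sum exceeded that of chondrocyte markers (543 against 482 FPKM), and in replicate 2 the sums were 437 and 493 FPKM. The condyle also held the markers of hypertrophic chondrocytes, with *Col10a1* between 334 and 1343 FPKM, while *Ihh* was at 0 in all 6 MC libraries. In Fgfr2+/S252W condyle replicate 3 the 10 osteoblast markers summed to 6626 FPKM, against 1756 and 1958 in the other libraries of its group. That sum lay within the range of Fgfr2+/+ bone (5913 to 9414 FPKM) and below that of Fgfr2+/S252W bone (7489 to 8775 FPKM). A single noncoding gene, *Gm42418*, took from 24.1% to 39.4% of counts in MC, from 10.9% to 20.2% in the condyle and from 5.58% to 9.33% in bone. In a fit without *Gm42418* and the mitochondrially encoded genes, the counts of the 10 genes higher or lower in each tissue comparison were unchanged. The share of the marker differences in the results that follow was not tested.

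**Figure D1:**
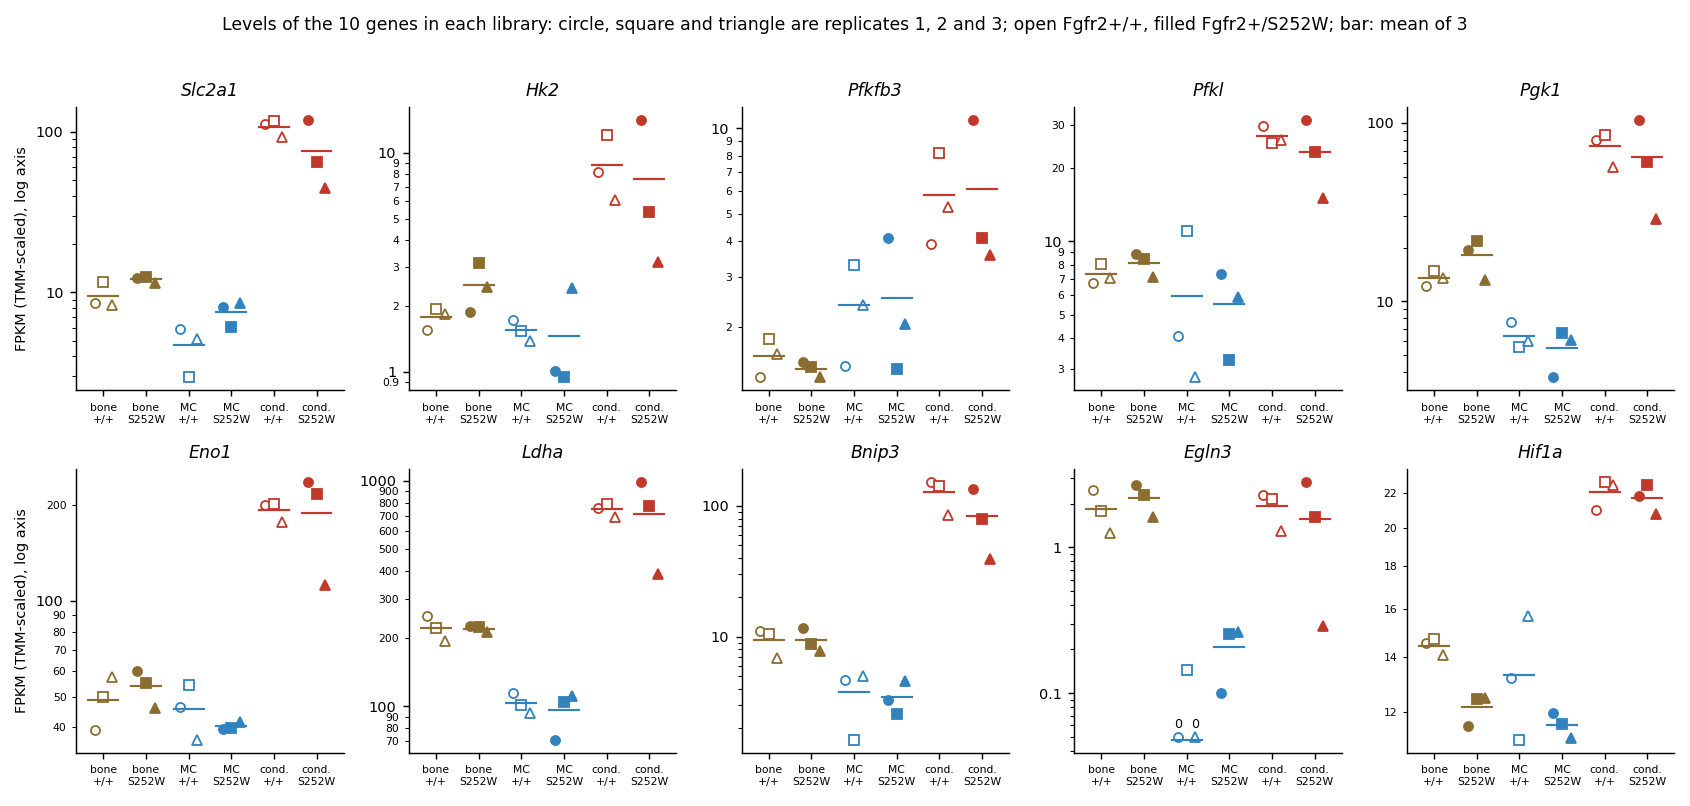
Level of each of the 10 genes in every library, in TMM-scaled FPKM on a log axis, by tissue (bone, MC, condyle) and genotype, with a bar at the mean of each group of 3. The condyle libraries (red) lie above the bone and MC libraries in most panels, *Egln3* is near or at 0 in MC, and Fgfr2+/S252W condyle replicate 3 (filled red triangle) is the lowest condyle library in all 10 panels.

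In the condyle, 9 of the 10 genes were higher than in bone in both genotypes, while 17.6% of all tested genes were higher there in Fgfr2+/+ and 14.9% in Fgfr2+/S252W embryos (limma, adjusted p below 0.05). The median log2 difference of the 10 genes was 1.94 in Fgfr2+/+ and 1.66 in Fgfr2+/S252W embryos, against -0.0048 and -0.0045 over all tested genes. Among the 9 genes that passed, the largest differences were those of *Bnip3* and *Slc2a1* and the smallest that of *Hif1a*. *Egln3* was the gene that did not pass. In each of the 6 embryos the 9 genes were higher in the condyle than in bone. With library totals in place of TMM factors, a scaling that moved the median of all tested genes by -0.15 and -0.45, the counts were 8 and 6, where 8.63% and 5.38% of all tested genes were higher (*Hif1a* in both genotypes, *Hk2* and *Pfkl* in Fgfr2+/S252W embryos no longer passed), and the share of higher genes among all calls went from 48.05% to 35.5% and from 47.9% to 20.1%. In bulk RNA of captured tissue, more cells of a type and more RNA per cell cannot be told apart.

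*Slc2a1* (chromosome 4, 119108711 to 119137330, plus strand) encodes GLUT1, the carrier that brings glucose into most cells. Its level in bone was 8.61, 11.6 and 8.37 FPKM in the Fgfr2+/+ embryos and 12.3, 12.5 and 11.5 FPKM in the Fgfr2+/S252W embryos. In the condyle it was 112, 117 and 92.3 FPKM and, in the same order of genotypes, 119, 65.0 and 45 FPKM. No condyle library overlapped a bone library, although the Fgfr2+/S252W condyle libraries spread over a wider range. The condyle was 11.4-fold higher than bone in Fgfr2+/+ (log2 3.51, SE 0.27, limma adjusted p = 6.37e-09) and 5.91-fold higher in Fgfr2+/S252W embryos (log2 2.56, SE 0.26, adjusted p = 1.76e-07).

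The enzymes were ordered as in the pathway. *Hk2* (chromosome 6, 82725025 to 82774454, minus strand) encodes hexokinase 2, which phosphorylates the incoming glucose. It had 1.55 to 1.93 FPKM in Fgfr2+/+ bone and 8.18, 12 and 6.12 FPKM in Fgfr2+/+ condyle, a 4.79-fold difference (log2 2.26, SE 0.41, limma adjusted p = 2.01e-04). The Fgfr2+/S252W embryos had 1.87, 3.14 and 2.45 FPKM in bone and 14.2, 5.37 and 3.18 FPKM in the condyle, where the lowest library lay just above the highest bone library. This difference of 1.45 (SE 0.38, adjusted p = 0.0061) fell to 0.81 (limma adjusted p = 0.0747) without replicate 1 of the Fgfr2+/S252W condyle.

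*Pfkl* (chromosome 10, 77986947 to 78009807, minus strand) encodes the liver form of phosphofructokinase, the committed step of glycolysis, and *Pfkfb3* (chromosome 2, 11471430 to 11502101, minus strand) encodes the enzyme that makes its activator, fructose 2,6-bisphosphate. *Pfkl* had 6.76 to 8.08 FPKM in Fgfr2+/+ bone and 25.3 to 29.6 FPKM in Fgfr2+/+ condyle, and 7.15 to 8.89 FPKM against 15 to 31.4 FPKM in Fgfr2+/S252W embryos. *Pfkfb3* was lower per length, with 1.33, 1.82 and 1.60 FPKM in Fgfr2+/+ bone and 3.92, 8.20 and 5.30 FPKM in Fgfr2+/+ condyle. Neither gene had overlapping groups, and in Fgfr2+/+ embryos the condyle was 3.70-fold (*Pfkl*) and 3.51-fold (*Pfkfb3*) higher than bone. *Pfkfb3* in Fgfr2+/S252W embryos had 1.51, 1.44 and 1.33 FPKM in bone and 10.7, 4.09 and 3.57 FPKM in the condyle. The folds there were 2.79 for *Pfkl* and 3.99 for *Pfkfb3*, and the limma adjusted p of the 4 differences lay between 2.18e-05 and 0.00145.

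*Pgk1* (chromosome X, 106187100 to 106203699, plus strand) encodes the kinase of the first ATP-forming step. It had 12.1, 14.7 and 13.5 FPKM in Fgfr2+/+ bone and 80.7, 85.6 and 56.9 FPKM in Fgfr2+/+ condyle, a 5.48-fold difference (log2 2.45, SE 0.33, limma adjusted p = 7.03e-06). The Fgfr2+/S252W values were 19.4, 21.7 and 13.2 FPKM in bone and 104, 60.5 and 29.0 FPKM in the condyle, a 3.31-fold difference (log2 1.73, SE 0.31, adjusted p = 2.34e-04). Bone and condyle did not overlap in either genotype.

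*Eno1* (chromosome 4, 150236721 to 150248879, plus strand) encodes the ubiquitous enolase, and *Ldha* (chromosome 7, 46841475 to 46855627, plus strand) the lactate dehydrogenase subunit that favours the making of lactate. *Ldha* was the most abundant of the 10 genes in every group, with 251, 222 and 195 FPKM in Fgfr2+/+ bone and 761, 791 and 695 FPKM in Fgfr2+/+ condyle. Fgfr2+/S252W embryos had 227, 224 and 213 FPKM in bone and 991, 771 and 386 FPKM in the condyle. The condyle was 3.38-fold (log2 1.76, SE 0.23) and 3.00-fold (log2 1.59, SE 0.23) higher in the 2 genotypes, with limma adjusted p = 6.33e-06 and 2.19e-05. *Eno1* had 39.1 to 57.5 FPKM in Fgfr2+/+ bone and 177 to 202 FPKM in Fgfr2+/+ condyle, with folds of 4.0 and, in Fgfr2+/S252W embryos, 3.36. *Pgk1*, *Eno1* and *Ldha* have near-identical copies elsewhere in the genome, and fragments that mapped to several places were not counted, so their levels are uncertain on that account.

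*Bnip3* (chromosome 7, 138890836 to 138909506, minus strand) encodes a receptor on the mitochondrial surface that takes part in the removal of mitochondria. Its level was 11.1, 10.6 and 6.85 FPKM in Fgfr2+/+ bone and 152, 142 and 85.5 FPKM in Fgfr2+/+ condyle. In Fgfr2+/S252W embryos it was 11.6, 8.84 and 7.77 FPKM in bone and 134, 79.0 and 39.2 FPKM in the condyle. Every condyle library thus held several times the level of any bone library, and the folds were 13.4 (log2 3.74, SE 0.37, limma adjusted p = 1.60e-07) in Fgfr2+/+ and 8.27 (log2 3.05, SE 0.36, adjusted p = 1.58e-06) in Fgfr2+/S252W embryos.

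*Hif1a* (chromosome 12, 73901375 to 73947530, plus strand) encodes the alpha subunit of HIF1, which oxygen controls mainly through the stability of the protein. Its transcript had 14.5, 14.7 and 14.1 FPKM in Fgfr2+/+ bone and 21.0, 22.7 and 22.5 FPKM in Fgfr2+/+ condyle. In Fgfr2+/S252W embryos it had 11.6, 12.5 and 12.5 FPKM in bone and 21.9, 22.5 and 20.8 FPKM in the condyle. The groups did not overlap and their spread was narrow, with a 1.53-fold difference in Fgfr2+/+ (log2 0.61, SE 0.13, limma adjusted p = 7.17e-04) and a 1.79-fold difference in Fgfr2+/S252W embryos (log2 0.84, SE 0.13, adjusted p = 3.30e-05). With library totals in place of TMM factors, the log2 differences were 0.46 (limma adjusted p = 0.266) and 0.38 (adjusted p = 0.332).

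*Egln3* (chromosome 12, 54178981 to 54203860, minus strand), whose product is one of the prolyl hydroxylases of HIF alpha subunits, was the exception. It had 2.46, 1.76 and 1.25 FPKM in Fgfr2+/+ bone and 2.29, 2.15 and 1.29 FPKM in Fgfr2+/+ condyle. In Fgfr2+/S252W embryos it had 2.67, 2.28 and 1.63 FPKM in bone and 2.82, 1.61 and 0.289 FPKM in the condyle. The ranges overlapped in both genotypes. The log2 difference was 0.12 (95% interval -0.88 to 1.11, limma adjusted p = 0.874) in Fgfr2+/+ and -0.69 (-1.75 to 0.38, adjusted p = 0.344) in Fgfr2+/S252W embryos, and the condyle was higher in 3 of 6 embryos. Without Fgfr2+/S252W condyle replicate 3, the library with 6 fragments of this gene, the second value was 0.04.

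**Figure D2:**
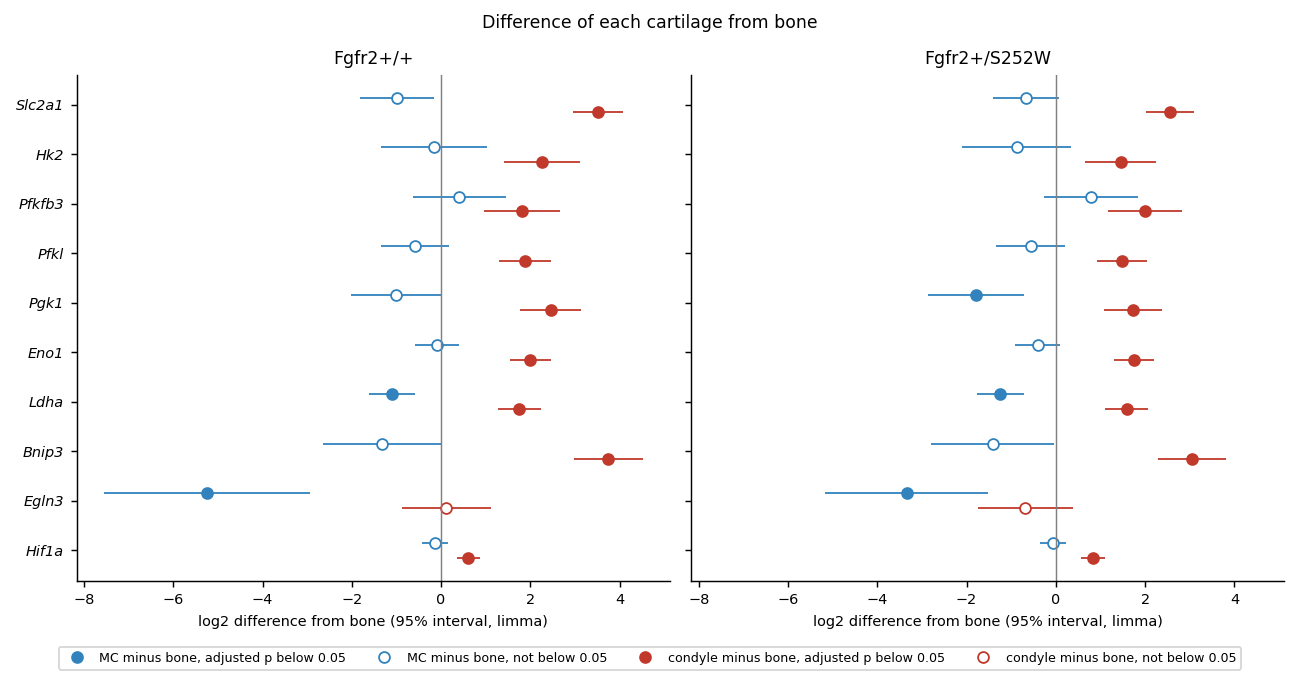
Log2 difference of MC (blue) and condyle (red) from bone for each of the 10 genes, with 95% intervals from limma, in Fgfr2+/+ (left) and Fgfr2+/S252W embryos (right), where filled points passed at an adjusted p below 0.05. For 9 genes the condyle lies to the right of 0 in both genotypes, whereas MC lies near or to the left of 0 for the genes other than *Pfkfb3* (0.41 and 0.79) and passes for *Ldha* and *Egln3* in both and for *Pgk1* in Fgfr2+/S252W embryos.

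MC did not share this pattern. None of the 10 genes was higher in MC than in bone, also at an unadjusted p below 0.05 and by edgeR or DESeq2, and 2 were lower in Fgfr2+/+ (*Ldha*, *Egln3*) and 3 in Fgfr2+/S252W embryos (*Ldha*, *Egln3*, *Pgk1*), while 17.7% and 19.1% of all tested genes were lower and 15.5% and 18.5% higher there (limma, adjusted p below 0.05). The counts of lower genes were thus near the background. The median log2 difference of the 10 genes was -0.79 and -0.77, against -0.02 over all tested genes in either genotype. With the embryo as a fixed block, a paired form of the fit, 5 genes were lower in Fgfr2+/+ MC, *Slc2a1*, *Pgk1* and *Bnip3* being added (adjusted p = 0.0399, 0.0432 and 0.0231). By edgeR and by DESeq2 5 genes were also lower there. In these 3 fits 16.1%, 16.1% and 17.8% of all tested genes were lower. In Fgfr2+/S252W MC the same 3 fits gave 4 lower genes each, *Bnip3* being added, where 17.9%, 17.9% and 18.7% of all tested genes were lower. For Fgfr2+/S252W MC 5 were lower with sample quality weights, and in a fit of only its libraries and those of bone 7 differed, *Pfkfb3* being the one that was higher (23.2% and 24.4% of all tested genes were lower in these fits). With library totals in place of TMM factors the counts of lower genes were 8 and 9, where 48.9% and 62.7% of all tested genes were lower, and 5.43% and 5.22% of all calls were then higher in MC instead of 46.65% and 49.2%. That scaling moved the median of all tested genes by -0.94 and -1.21.

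*Ldha* had 115, 101 and 93.0 FPKM in Fgfr2+/+ MC and 71.1, 105 and 111 FPKM in Fgfr2+/S252W MC, all below every bone library of either genotype. MC was 2.15-fold lower than bone in Fgfr2+/+ (log2 -1.10, SE 0.25, limma adjusted p = 0.00206) and 2.37-fold lower in Fgfr2+/S252W embryos (log2 -1.25, SE 0.25, adjusted p = 6.48e-04). *Egln3* was almost absent from MC, with 0, 2 and 0 fragments in the Fgfr2+/+ libraries and 2, 3 and 4 in the Fgfr2+/S252W libraries, against 59 to 139 in bone. On the FPKM scale this was 0, 0.144 and 0 in Fgfr2+/+ MC and 0.100, 0.254 and 0.263 in Fgfr2+/S252W MC, with no overlap with bone. The fitted log2 differences of *Egln3*, -5.25 (SE 1.11, adjusted p = 0.00133) and -3.34 (SE 0.88, adjusted p = 0.00532), depend on the small count that limma's voom adds before taking logarithms.

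*Pgk1* had 7.69, 5.56 and 5.96 FPKM in Fgfr2+/+ MC and 3.73, 6.66 and 6.04 FPKM in Fgfr2+/S252W MC, below every bone library of the same genotype. The log2 difference from bone was -1.78 (SE 0.52, limma adjusted p = 0.0104) in Fgfr2+/S252W embryos and -1.02 (SE 0.48, adjusted p = 0.111) in Fgfr2+/+ embryos. Without replicate 1 of Fgfr2+/S252W MC the first was -1.52 (adjusted p = 0.0754). *Slc2a1* and *Bnip3* showed the same non-overlap without passing the threshold in the main analysis. *Slc2a1* had 5.93, 2.95 and 5.13 FPKM in Fgfr2+/+ MC and 8.15, 6.08 and 8.53 FPKM in Fgfr2+/S252W MC (limma adjusted p = 0.0618 and 0.152). *Bnip3* had 4.66, 1.63 and 5.02 FPKM and 3.27, 2.56 and 4.58 FPKM (adjusted p = 0.113 and 0.098). These 5 genes were lower in MC than in bone in 6 of 6 embryos.

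For the other 5 genes the MC and bone ranges overlapped in Fgfr2+/+ embryos. *Hif1a* had 13.2, 11.1 and 15.7 FPKM in Fgfr2+/+ MC and 12, 11.6 and 11.2 FPKM in Fgfr2+/S252W MC, with log2 differences from bone of -0.13 (95% interval -0.42 to 0.16) and -0.07 (-0.37 to 0.23). *Eno1* had 46.4, 54.3 and 36.6 FPKM and 39.6, 39.7 and 41.7 FPKM, with differences of -0.09 and -0.41. *Pfkfb3* was the gene with a positive difference in both genotypes, 0.41 (95% interval -0.63 to 1.45) and 0.79 (-0.27 to 1.84), from 1.45, 3.30 and 2.39 FPKM and 4.10, 1.41 and 2.04 FPKM. *Pfkl* ranged from 2.76 to 11 FPKM in Fgfr2+/+ MC and from 3.26 to 7.34 FPKM in Fgfr2+/S252W MC. *Hk2* ranged from 1.38 to 1.73 FPKM and from 0.943 to 2.40 FPKM. None of these differences passed the threshold in the fit to all 18 libraries (limma adjusted p from 0.195 to 0.853). In a fit of only the Fgfr2+/S252W MC and bone libraries *Pfkfb3* (0.81, limma adjusted p = 0.0364) and *Eno1* (-0.39, adjusted p = 0.0251) did. *Pfkl* in Fgfr2+/+ MC passed without MC replicate 2 (-1.05, limma adjusted p = 0.0417). With library totals in place of TMM factors *Pfkl*, *Eno1* and *Hif1a* were lower in MC of both genotypes and *Hk2* in that of Fgfr2+/S252W embryos.

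Set against each other, the cartilages differed in all 10 genes. The condyle was higher than MC for 10 of 10 in both genotypes, where 22.6% of all tested genes were higher in Fgfr2+/+ and 21% in Fgfr2+/S252W embryos. The median log2 difference was 2.67 and 2.49, against 0.02 and 0.0007 over all tested genes. *Bnip3* was 33.7-fold and 22.1-fold higher in the condyle, *Slc2a1* 22.5-fold and 9.36-fold, *Pgk1* 11.1-fold and 11.4-fold, and *Ldha* 7.25-fold and 7.12-fold (limma adjusted p at most 1.59e-05 for the 8 values). *Hif1a* differed least, 1.67-fold and 1.87-fold. The difference of *Pfkfb3* in Fgfr2+/S252W embryos (log2 1.21, SE 0.47, adjusted p = 0.0447), the one whose groups overlapped, missed the threshold under 10 alternatives, among them the fits without any 1 of the 6 bone libraries, and gave 0.64 (limma adjusted p = 0.251) without replicate 1 of the Fgfr2+/S252W condyle. In Fgfr2+/+ embryos it was 1.40 and gave 0.99 (adjusted p = 0.116) without MC replicate 1 and 1.11 (adjusted p = 0.0673) without condyle replicate 2, and with sample quality weights it was 1.25 (limma adjusted p = 0.0966). That of *Egln3* in Fgfr2+/S252W embryos (2.66, SE 0.94, limma adjusted p = 0.028) lay between 1.90 and 2.88 and missed the threshold without any 1 of the 3 MC libraries or without condyle replicate 1 or 2 (adjusted p from 0.0545 to 0.124).

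In order of mean level the tissues were condyle, bone, MC for 9 genes in Fgfr2+/+ and for 8 in Fgfr2+/S252W embryos. *Pfkfb3* had MC above bone in both, with overlapping ranges, and *Egln3* had bone above condyle in Fgfr2+/S252W embryos, again with overlap. The summed level of the 10 genes was 307 to 349 FPKM in Fgfr2+/+ bone, 168 to 200 FPKM in MC and 1168 to 1408 FPKM in the condyle. The Fgfr2+/S252W sums were 317 to 357, 150 to 194 and 654 to 1666 FPKM.

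Markers of other cells moved with these comparisons. Of all tested genes, 19.1% (Fgfr2+/+) and 16.2% (Fgfr2+/S252W) were lower in the condyle than in bone, and 17.7% and 19.1% in MC. The shares of higher genes were 17.6% and 14.9% in the condyle and 15.5% and 18.5% in MC. Endothelial markers, 7 genes of which 4 were tested, were lower in both cartilages than in bone in both genotypes for 4 of 4 (limma). Their summed level was 52.4 to 69.3 FPKM in Fgfr2+/+ bone, 5.19 to 17.2 in MC and 2.40 to 6.34 in the condyle, and 56.1 to 59.3, 7.70 to 22.3 and 1.45 to 5.49 FPKM in Fgfr2+/S252W embryos. Erythroid markers, 6 genes of which 5 were tested, were lower than in bone for 5 in the Fgfr2+/+ condyle, 3 in the Fgfr2+/S252W condyle and 2 in MC of each genotype. They summed to 1630 to 1958 FPKM in Fgfr2+/+ bone, 202 to 619 in MC and 27.7 to 289 in the condyle, and to 405 to 770, 135 to 410 and 59.2 to 203 FPKM in Fgfr2+/S252W embryos. Osteoblast markers were lower than in bone for 8 of 8 tested genes in MC and 4 of 8 in the condyle of both genotypes. Macrophage and osteoclast markers summed to between 402 and 849 FPKM in bone, 54.7 and 78.5 in MC and 9.36 and 17.7 in the condyle. Of 5 tested genes on that list 4 were lower in MC than in bone in both genotypes, but *C1qb*, for a complement subunit made by macrophages, was higher in Fgfr2+/S252W MC (16.6 to 23.5 FPKM against 0.800 to 0.937 in bone, log2 4.51, limma adjusted p = 3.36e-05). The untested macrophage marker *Adgre1* had 2.27 to 3.68 FPKM there and 0.123 to 0.429 in bone. The 3 tested markers of hypertrophic chondrocytes were higher in the condyle than in bone in both genotypes, and the list summed to between 653 and 1767 FPKM there, between 86.1 and 137 in bone and between 20.1 and 48.8 in MC. Chondrocyte markers were higher than in bone for 9 of 9 in the condyle of both genotypes and, in MC, for 5 of 9 in Fgfr2+/+ and 8 of 9 in Fgfr2+/S252W embryos. The part of the cell makeup in the levels of the 10 genes was not tested. Without Fgfr2+/+ MC replicate 1 the counts of lower genes in MC were again 2 and 3, as they were without Fgfr2+/S252W MC replicate 2 or 3.

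The share that a gene took of its family was computed for 9 of the 10 genes (not for *Pgk1*) and is given as a description, without a test. *Hk2* made up 45.4% to 48.3% of the summed FPKM of *Hk1* and *Hk2* in Fgfr2+/+ bone and 73.8% to 83.4% in Fgfr2+/+ condyle. *Bnip3* made up 21.8% to 24.3% of *Bnip3* and its relative *Bnip3l* in Fgfr2+/+ bone, 14% to 39.2% in MC and 82.1% to 85.2% in the condyle. The corresponding Fgfr2+/S252W ranges of *Bnip3* were 27.2% to 31.7%, 23.3% to 24.9% and 67.1% to 81.4%. In bone and MC *Bnip3l* was thus the more abundant of the pair in every library, and in the condyle *Bnip3* was. The erythroid marker sums given above did not overlap between bone and condyle either, and the part of erythroid RNA in the shares of *Bnip3* was not tested.

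*Eno1* held 72.5% to 83.7% of the enolase transcripts in Fgfr2+/+ bone and 98.4% to 98.7% in the condyle, where *Eno3*, the muscle form, had 2.31 to 2.61 FPKM against 10.8 to 18.6 FPKM in bone. In the Fgfr2+/S252W embryos *Eno1* held 84.4% to 87.5% in bone and 97.6% to 98.3% in the condyle. Skeletal muscle markers summed to 118, 108 and 14.5 FPKM in the 3 Fgfr2+/+ bone libraries, where *Eno1* held 74.8%, 72.5% and 83.7%, and to between 1.00 and 15.3 FPKM in Fgfr2+/S252W bone, and the part of muscle RNA in these shares was not tested. The share of *Ldha* in *Ldha* and *Ldhb*, the subunit that favours the use of lactate, was 94.7% to 95.5% in Fgfr2+/+ bone, 86.9% to 90.9% in MC and 96.9% to 97.5% in the condyle. It was lowest in Fgfr2+/S252W MC, at 76.2% to 86.3%. Among the HIF alpha subunits, *Hif1a* made up 51.1% to 56.1% in Fgfr2+/+ bone, 46.5% to 66.6% in MC and 68.0% to 86.5% in the condyle. In the Fgfr2+/S252W condyle it ranged from 55.5% in replicate 3 to 89.6% in replicate 1. *Egln3* was a minor hydroxylase transcript in all tissues, with at most 15.4% of *Egln1*, *Egln2* and *Egln3*.

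**Figure D3:**
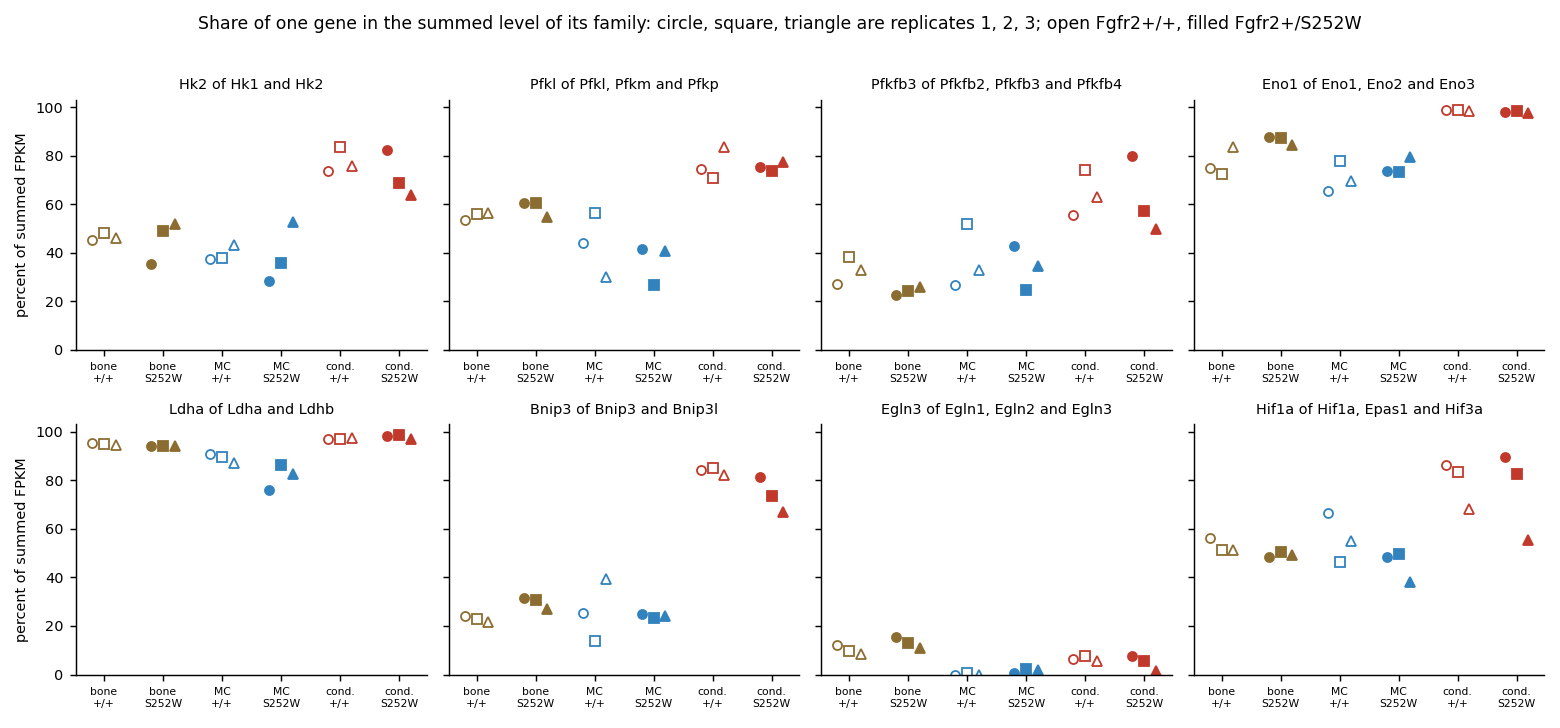
Percent of the summed FPKM of a gene family that 1 of the 10 genes made up in each library, by tissue and genotype. The shares of *Hk2*, *Bnip3*, *Eno1* and *Pfkl* are higher in the condyle libraries than in all bone and MC libraries, with *Bnip3* between 67.1% and 85.2% there against 14% to 39.2% in the other tissues.

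Beyond the 10 genes, 57 genes of the same pathways were listed, of which 49 were tested. In the condyle against bone 21 of the 49 were higher and 5 lower in Fgfr2+/+, and 21 higher and 8 lower in Fgfr2+/S252W embryos (limma, adjusted p below 0.05). In MC against bone 2 were higher and 11 lower in Fgfr2+/+, and 3 higher and 15 lower in Fgfr2+/S252W embryos. Of all tested genes, 17.6% and 14.9% were higher and 19.1% and 16.2% lower in the condyle of the 2 genotypes, and 15.5% and 18.5% higher and 17.7% and 19.1% lower in MC. The median log2 difference of the 49 genes was 0.51 and 0.33 in the condyle and -0.47 and -0.44 in MC.

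Of 4 tested carriers of glucose and lactate, 2 were higher in the Fgfr2+/+ condyle than in bone and 4 in the Fgfr2+/S252W condyle. *Slc16a3*, which encodes the lactate exporter MCT4, had 1.19 to 1.30 FPKM in Fgfr2+/+ bone and 12.7 to 17.4 FPKM in the condyle (log2 3.51 and, in Fgfr2+/S252W embryos, 3.11). *Slc2a10* was higher in the condyle (1.04 and 0.86) and lower in MC (-1.28 and -1.52) than in bone, and passed in all 4 comparisons. *Slc16a1*, for the carrier MCT1, and *Slc2a8* passed in the Fgfr2+/S252W condyle (1.26 and 1.09) and not in Fgfr2+/+ (0.89 and 0.66).

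Of 14 other glycolytic genes tested, 8 were higher and 1 lower in the Fgfr2+/+ condyle than in bone, and 7 and 2 in the Fgfr2+/S252W condyle. *Pkm*, for the pyruvate kinase of most tissues, rose by 1.59 and 1.34 on the log2 scale in the condyle and gave 0.06 and -0.18 in MC, neither of which passed. *Eno3* was lower in both condyle groups (-2.43 and -1.24). *Pfkfb2*, which encodes another maker and remover of fructose 2,6-bisphosphate, was lower in the Fgfr2+/S252W condyle (-0.85). In MC 3 were lower in each genotype, and *Pfkm*, the muscle phosphofructokinase, and *Ldhb* were higher in the Fgfr2+/S252W MC (1.00 and 0.58). Skeletal muscle markers summed to 9.20 to 38.5 FPKM there and to 1.00 to 15.3 FPKM in Fgfr2+/S252W bone, with a median log2 difference of 1.82 over the 4 that were tested, none of which passed, and their part in this result was not tested. The 3 genes lower in MC were *Aldoa*, *Aldoc* and *Gapdh*, named here after their values were seen, which fell by 0.86 to 2.73 in MC and rose by 1.03 to 3.31 in the condyle.

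Among 7 tested genes of HIF subunits and oxygen sensing, 2 were higher and 1 lower in the condyle of either genotype. *Egln1*, for the main HIF prolyl hydroxylase, and *Hif1an*, for the asparaginyl hydroxylase that limits HIF activity, were higher (0.89 and 0.78 in Fgfr2+/+, 0.98 and 0.70 in Fgfr2+/S252W embryos). *Hif3a* was lower, at 0.412 to 1.72 FPKM in Fgfr2+/+ condyle against 5.32 to 6.32 FPKM in bone (log2 -2.98 and -4.18). In MC 2 were higher and 1 lower in Fgfr2+/+, and 1 was higher in Fgfr2+/S252W embryos (*Hif3a*, 0.96). *Vhl*, which encodes the ubiquitin ligase subunit that recognizes hydroxylated HIF, and *Hif1an* were higher in the Fgfr2+/+ MC than in bone (1.23 and 0.66). *Epas1*, for the HIF2 alpha subunit, was lower there (-1.62).

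Of 16 other HIF target genes, 9 were higher and 1 lower in the Fgfr2+/+ condyle, 8 and 3 in the Fgfr2+/S252W condyle, and 5 and 7 were lower in MC of the 2 genotypes. *Ak4*, a mitochondrial adenylate kinase, had 1.14 to 2.64 FPKM in Fgfr2+/+ bone and 26.1 to 35.4 FPKM in the condyle (log2 4.36 and, in Fgfr2+/S252W embryos, 3.80). *Higd1a* (2.98 and 2.65) and *Plod2*, a collagen lysyl hydroxylase (1.90 and 1.56), followed. *Ndrg1* was lower than bone in all 4 comparisons (-0.86 to -1.39). *Ankrd37* was lower in 3 of them and gave -0.99 (limma adjusted p = 0.0701) in the Fgfr2+/+ condyle. *Bnip3l* was lower in MC (-1.54 and -1.02) and did not pass in the condyle (-0.39 and 0.25).

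Of 8 tested genes for the entry of pyruvate into mitochondria, 2 were lower than bone in the condyle of each genotype, 1 in Fgfr2+/+ MC and 4 in Fgfr2+/S252W MC, and none was higher. With 16.2% to 19.1% of all tested genes lower in these comparisons, the counts of 1 and 2 were near the background. *Dlat*, for a subunit of pyruvate dehydrogenase, was lower in both condyle groups (-0.75 and -0.60) and in Fgfr2+/S252W MC (-1.04). *Pdhb*, for another subunit, was lower in MC (-1.27 and -1.56), and *Pdk4*, for a kinase that inhibits the complex, was lower in the condyle (-1.90 and -1.34).

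**Figure D4:**
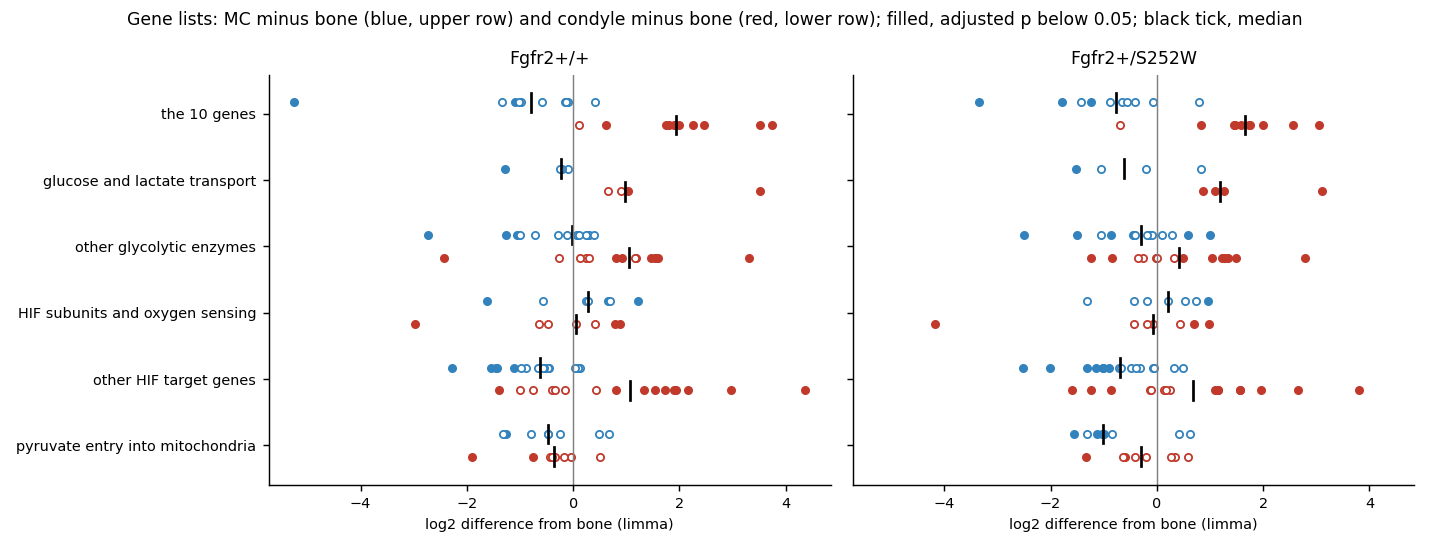
Log2 difference from bone of each tested gene of the pathway lists and of the 10 genes, for MC (blue, upper row of a list) and condyle (red, lower row), in Fgfr2+/+ (left) and Fgfr2+/S252W embryos (right), where filled points passed at an adjusted p below 0.05 and black ticks are medians. The median of the 10 genes is 1.94 and 1.66 in the condyle and -0.79 and -0.77 in MC, and the medians of pyruvate entry are below 0 in all 4.

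Between genotypes, none of the 10 genes passed the threshold in any tissue. In bone 0.0872% of all tested genes passed, in MC 0.00872% and in the condyle 0% (limma, adjusted p below 0.05). At an unadjusted p below 0.05 the number of the 10 genes was 0 in bone, 0 in MC and 2 in the condyle, where the shares of all tested genes were 8.07%, 15.3% and 3.04%. By edgeR and DESeq2 none of the 10 passed at an adjusted p below 0.05 in any tissue. The genes with an unadjusted p below 0.05 were *Slc2a1*, lower in Fgfr2+/S252W condyle by 1.49-fold (log2 -0.57, 95% interval -1.05 to -0.09, limma adjusted p = 0.999), and *Bnip3*, lower by 1.60-fold (-0.68, -1.31 to -0.05, adjusted p = 0.999). Without Fgfr2+/S252W condyle replicate 3 these log2 differences were -0.27 and -0.25 (unadjusted p = 0.205 and 0.334, limma adjusted p = 0.999 for both). Without replicate 1 of that group they were -0.97 and -1.12 (unadjusted p = 5.12e-05 and 8.23e-04, limma adjusted p = 0.581 and 0.698). *Hif1a* in the condyle had the narrowest interval, -0.28 to 0.24 around -0.02. For *Egln3* in MC, with 0 to 4 fragments per library, the interval ran from -0.58 to 5.01.

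The difference of a cartilage from bone was also compared between genotypes. None of the 10 genes passed for MC, where 0.0523% of all tested genes did, nor for the condyle, where 0% did (limma interaction, adjusted p below 0.05), nor did any by edgeR or DESeq2. At an unadjusted p below 0.05 the counts were 0 and 1, beside 10.5% and 2.82% of all tested genes. The 1 gene was *Slc2a1*, whose condyle difference was 0.94 smaller on the log2 scale in Fgfr2+/S252W embryos (SE 0.37, limma adjusted p = 0.9997). The estimate was negative for 8 of the 10 genes in the condyle and for 51.5% of all tested genes. Without Fgfr2+/S252W condyle replicate 3, which enters each of these estimates, it was negative for 6 of the 10.

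**Figure D5:**
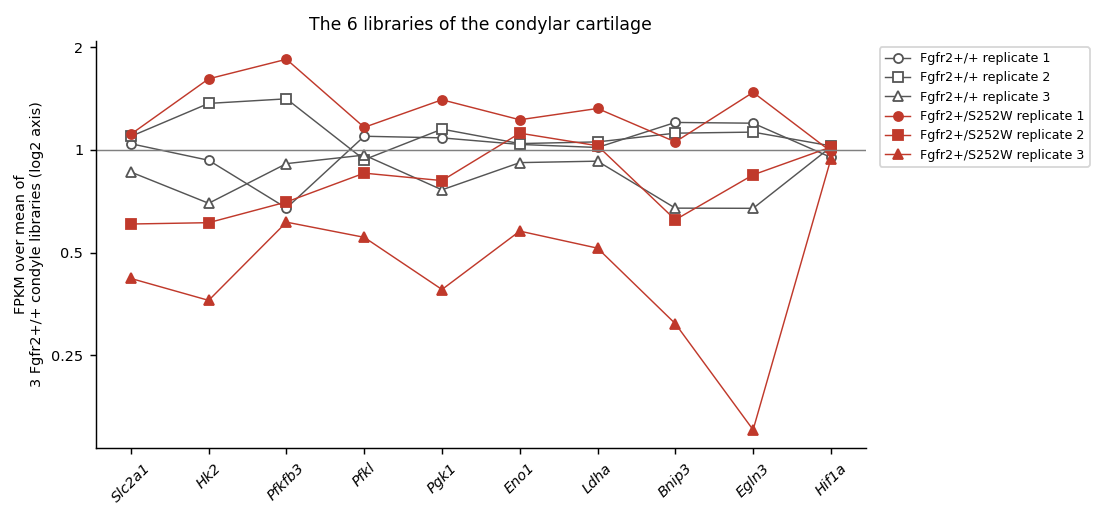
FPKM of each of the 10 genes in the 6 condyle libraries, divided by the mean of the 3 Fgfr2+/+ condyle libraries, on a log2 axis, with lines joining the values of a library. Replicate 3 of Fgfr2+/S252W (filled triangles) is below 1 for 10 of 10 genes with a median ratio of 0.468, and replicate 1 (filled circles) has a median ratio of 1.27.

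The condyle libraries of the Fgfr2+/S252W embryos varied widely among themselves. Replicate 3 was the lowest of all 6 condyle libraries for 10 of 10 genes, with a median of 0.468 times the Fgfr2+/+ mean, and replicate 1 was the highest for 8 of 10, with a median of 1.27. Replicate 2 lay between them (0.829). Replicate 3 was also the library with the highest osteoblast marker sum of the condyle, 6626 FPKM, and among Fgfr2+/+ condyle libraries replicate 3 had the highest sum (4187 FPKM against 2124 and 1675) and the lowest median ratio (0.887). Chondrocyte markers were not low in these libraries, since their sums of 7585 and 7681 FPKM were the highest of each group, as were the hypertrophic chondrocyte sums (1410.5 and 1767 FPKM) and the shares of *Gm42418* (20.2% and 20.1%). Without Fgfr2+/S252W condyle replicate 3, 9 genes were again higher than bone in the Fgfr2+/S252W condyle, with log2 differences from 0.88 (*Hif1a*) to 3.49 (*Bnip3*). The part of osteoblast RNA in the low values was not tested. Leaving out the same library moved the count of genes lower in Fgfr2+/+ MC from 2 to 5. The share of all tested genes lower there went from 17.7% to 19.1%. Leaving out replicate 1 moved that count to 4 (17.9%) and the count in Fgfr2+/S252W MC from 3 to 5 (19.1% in both fits). The Fgfr2+/+ comparison holds no Fgfr2+/S252W library, and neither comparison holds a condyle library. Without replicate 3 the log2 differences in Fgfr2+/+ MC were -0.99 for *Slc2a1* and -1.34 for *Bnip3*, against -0.98 and -1.33 with it. The cause of these moves was not tested.

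Over the 18 libraries, the 10 genes followed each other with Pearson correlations of log2 CPM that are given as a description, since libraries of one tissue share their source. For each gene the most similar of the 11468 other tested genes was *Ldha* for *Pgk1* and the reverse (r = 0.988), *Siah2* for *Slc2a1* (0.985), *Sptlc2* for *Eno1* (0.984), *Slc2a1* for *Bnip3* (0.982), *Cd24a* for *Hif1a* (0.965), *P3h2* for *Pfkl* (0.964), *Atp2a2* for *Hk2* (0.959), *Tomm22* for *Egln3* (0.944) and *Atg2b* for *Pfkfb3* (0.923). The median correlation with the other 9 genes was 0.559 for *Egln3* and 0.739 for *Pfkfb3*, and between 0.861 and 0.936 for the rest.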

How the data were processed

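RNA of bone, MC and condyle from 3 Fgfr2+/S252W and 3 Fgfr2+/+ embryos was sequenced in 18 libraries. The authors amplified the RNA and aligned read pairs by STAR (mm10), and their featureCounts 1.5.0-p1 run assigned fragments to genes of Ensembl release 75, without strand and without fragments that map to several places. The deposited values are raw counts. Groups follow the labels, from which it was also inferred that libraries of a genotype with equal replicate numbers share an embryo. Per library 8218548 to 15585778 fragments were counted.

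In R 4.3.3 with limma 3.58.1 and edgeR 4.0.16, the filter kept genes whose FPKM passed 1 in 50% or more of the libraries, and these were scaled by TMM and fitted with voom, 6 group means and the embryo as a random block, as the study's methods do apart from the block. The consensus correlation within embryos was -0.0247, and libraries of the same embryo in different tissues correlated by -0.086 to 0.105 (18 pairs, deviations from group means). Adjusted p-values are Benjamini-Hochberg values over all tested genes of a comparison, with a threshold of 0.05. The median SE over all tested genes in the comparisons of a cartilage with bone was 0.30 on the log2 scale. Alternatives were no block or a fixed block, edgeR's quasi-likelihood test, DESeq2 1.42.0, other scalings, filters, weights and samples, and each library left out. The procedure was tested on simulated data.

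The 10 genes, the pathway lists and the markers were chosen with earlier results of these data known. Named are the 10 genes, up to 3 genes per pathway list and direction by p over the 4 cartilage comparisons with bone, and the gene most correlated with each of the 10. Relatives of the 10 appear with the family shares, and *Aldoa*, *Aldoc*, *Gapdh*, *C1qb* and *Adgre1* were named after their values were seen. Promoter windows are RefSeq's on GRCm38.p6.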

Additional observations from a re-analysis of the deposited data

How the results depend on the processing

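For the condyle against bone, 8 to 9 of the 10 genes passed in every fit without 1 library (9 in each for Fgfr2+/+), and 9 in both genotypes under each other alternative except library totals (8 and 6). Without 1 library 14% to 20.4% of all tested genes were higher there in Fgfr2+/+ and 12.1% to 17.3% in Fgfr2+/S252W embryos. Under the other alternatives these shares were 10.3% to 22.6% and 10.9% to 23.8%, and with library totals 8.63% and 5.38%. For the condyle against MC, 9 to 10 passed in Fgfr2+/+ and 8 to 10 in Fgfr2+/S252W embryos without 1 library. Of all tested genes 20% to 24.2% and 17.6% to 23.3% were then higher in the condyle. The counts for MC against bone moved more. In Fgfr2+/+ embryos 2 genes passed, and 5 with a fixed replicate block, 5 by edgeR, 5 by DESeq2, 8 with library totals and 2 to 5 without 1 library. In Fgfr2+/S252W embryos 3 passed, and 9 with library totals, 5 with sample quality weights, 7 with only the groups compared and 2 to 5 without 1 library. With a fixed replicate block, by edgeR and by DESeq2 4 passed there. Of all tested genes 48.9% and 62.7% were lower in MC with library totals. Without 1 library 14.3% to 19.5% were lower in Fgfr2+/+ and 13% to 21.4% in Fgfr2+/S252W embryos. The shares in the other fits are given above. The cause of the moves in these counts was not tested. Without the replicate block no other count moved by over 1.5 times. The count of 0 for each genotype comparison and interaction was the same in all alternatives run. Directions that reversed belonged to differences that never passed in the main analysis: with library totals *Pfkfb3* in MC against bone (-0.41 in Fgfr2+/+, -0.50 in Fgfr2+/S252W) and *Egln3* in the Fgfr2+/+ condyle (-0.080), and without 1 library *Eno1* in Fgfr2+/+ MC (-0.24 to 0.044) and *Egln3* in the condyle (-0.17 to 0.37 and -1.44 to 0.040). Depth limits *Egln3* in MC, where at most 4 fragments were counted.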
